A study of Mus musculus with 12 samples.

Results

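A set of 10 SOX family genes, Sox1, Sox2, Sox3, Sox4, Sox5, Sox6, Sox9, Sox11, Sox12 and Sox21, were followed by name through cultures of mouse neural progenitors. The members were 10 of the 55401 gene identifiers in the count table, were chosen as SOX factors known in neural progenitors, and all 10 were among the 16135 genes with enough counts to test. RNA was sequenced in 12 libraries from primary CD1 mouse cells of the subventricular zone, a germinal layer along the lateral ventricles, 4 libraries in each of 3 groups. Postnatal oligodendrocyte precursor cells (OPC) came from dissociated neurospheres of pups of postnatal day 0 to 2 that were plated as monolayers and kept 2 days in FGF (10 ng/mL) and PDGF-AA (10 ng/mL). Adult neural stem cells (NSC) were neurospheres, floating clusters of stem and progenitor cells, from mice aged 2 months. Postnatal NSC were neurospheres from pups of postnatal day 0 to 2. Both kinds of neurosphere grew 6 to 7 days in FGF (10 ng/mL), EGF (20 ng/mL) and heparin (2 ug/mL), and all 3 groups were in serum-free medium with 2% B27. No genotype or drug separated the groups, and the labels name 4 independent litters as the biological replicates. Postnatal OPC therefore differed from postnatal NSC in growth factors, in attachment and in days of culture at once, and these cannot be told apart.

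SOX proteins bind DNA through an HMG box that bends the double helix, and they act mostly together with partner factors of other families. The SOXB1 proteins (Sox1, Sox2 and Sox3) hold neural progenitors in an undifferentiated state, and the SOXB2 protein Sox21 counteracts them. The SOXC proteins (Sox4, Sox11 and Sox12) act in committed precursors and young neurons. The SOXD proteins (Sox5 and Sox6) lack an activation domain of their own and modulate other SOX proteins in the oligodendrocyte lineage. The SOXE protein Sox9 promotes the change from making neurons to making glia.

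A postnatal OPC library held 17226501 to 23651396 counts, an adult NSC library 16756231 to 20064043 and a postnatal NSC library 38928989 to 54801726. The unit of level is CPM (counts per 1e6 after TMM scaling), and each member had between 369 and 33257 counts in a library. The labelled cell types were compared with marker genes. Of 10 OPC markers, 6 were higher and none lower in postnatal OPC than in postnatal NSC, and all 10 were higher in postnatal OPC than in adult NSC. Their summed level was 10199 to 15039 CPM in postnatal OPC, 5089 to 5406 CPM in adult NSC and 5962 to 6331 CPM in postnatal NSC. Most of the adult NSC sum was Ptprz1, Olig1 and Olig2, with means of 2921, 1508 and 622 CPM. Pdgfra, Gpr17, Lhfpl3 and Sox10 had means of only 12.2, 4.93, 24.3 and 12.4 CPM in adult NSC. In postnatal OPC these means were 1433, 973, 396 and 191 CPM, and in postnatal NSC they were 230, 543, 62.8 and 136 CPM. Gpr17 and Sox10 were not among the 6 markers higher in postnatal OPC than in postnatal NSC. Gpr17 was at 450, 2776, 320 and 348 CPM in postnatal OPC 1 to 4, so postnatal OPC 2 carried most of its mean there. Postnatal OPC 2 and postnatal NSC 3 stood apart in 20 genes of the G1/S transition of the cell cycle, with a mean log2 CPM of 4.52 in postnatal OPC 2 and 4.90 in postnatal NSC 3, while the other 10 libraries had 5.99 to 6.78. Without these 2 libraries, 6 members were higher and 3 lower in postnatal OPC than in postnatal NSC, 1 was higher and 7 lower in adult than in postnatal NSC, and 6 were higher and 3 lower in postnatal OPC than in adult NSC.

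Postnatal OPC had more of 6 of the 10 SOX genes and less of 3 than postnatal NSC. Sox2, Sox5, Sox6, Sox9, Sox11 and Sox12 were higher, Sox1, Sox3 and Sox21 were lower, and Sox4 did not pass the test. Over all genes tested, 45.1% were called in this comparison, 22.4% higher and 22.7% lower (edgeR quasi-likelihood test, adjusted p under 0.05), and the members had a median log2 fold change of 0.55 where all genes had -0.0083. In bulk samples, fewer cells of a type and less RNA per cell cannot be told apart.

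Adult NSC had less of 5 of the 10 genes and more of 1 than postnatal NSC. Sox5, Sox6, Sox9, Sox12 and Sox21 were lower, Sox11 was higher, and Sox1, Sox2, Sox3 and Sox4 did not pass the test. The background over all genes tested was 53.1% called, 27.9% lower and 25.2% higher, and the median log2 fold change was -0.36 over the members and -0.025 over all genes. Without postnatal OPC 2, which enters the shared estimate of spread, 7 members were lower, and 3 were lower without adult NSC 2, adult NSC 3, adult NSC 4, postnatal NSC 2 or postnatal NSC 3. The same single member, Sox11, was higher in every one of these fits.

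Postnatal OPC had more of 6 members and less of 2 than adult NSC. Sox2, Sox4, Sox5, Sox6, Sox9 and Sox12 were higher, Sox1 and Sox11 were lower, and Sox3 and Sox21 did not pass the test. The background was 51% called, 26.3% higher and 24.7% lower, with a median log2 fold change of 0.83 over the members and 0.0065 over all genes. The 3 comparisons share their samples, so their values are given side by side and are not independent. Where libraries of a gene are said below not to overlap between groups, the share of all genes that separate likewise was not counted.

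**Figure D1:**
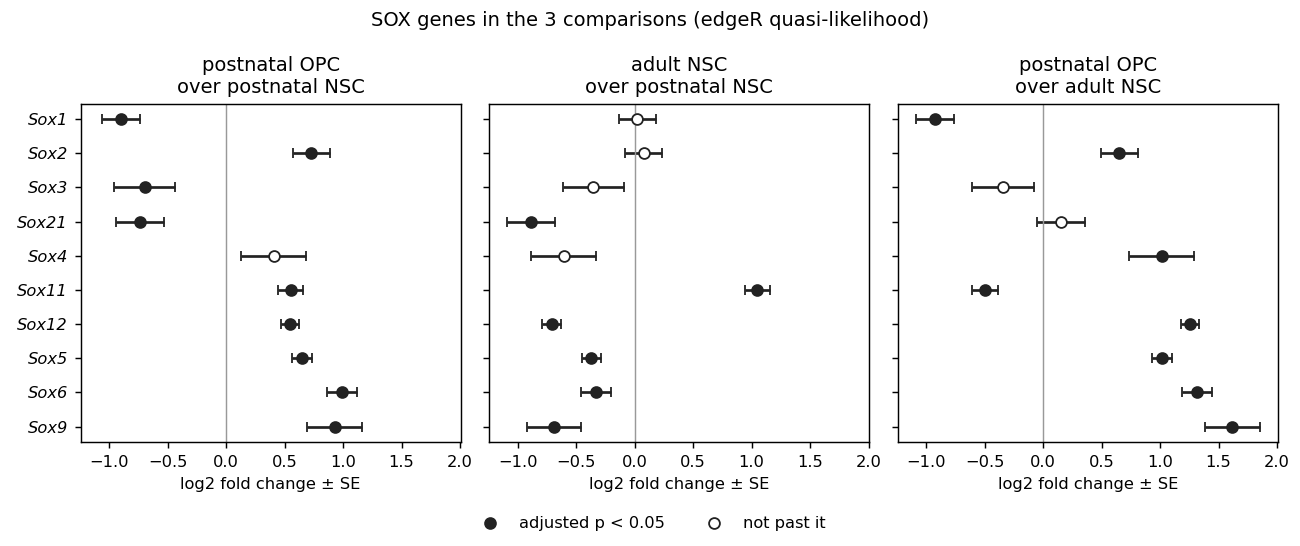
Log2 fold change of each SOX gene (points) with its standard error (bars) in postnatal OPC over postnatal NSC, adult NSC over postnatal NSC and postnatal OPC over adult NSC. Filled points passed an adjusted p of 0.05 and open points did not. Sox12 lies to the right in both OPC panels and to the left in adult over postnatal NSC. Sox11 is right of 0 in adult over postnatal NSC and left of 0 in postnatal OPC over adult NSC.

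Among the SOXB1 genes, Sox2 is the factor most widely used to mark and maintain neural stem cells (ENSMUSG00000074637.7, chr3:34650405-34652461, + strand, a single exon). Sox2 was at 388, 387, 286 and 274 CPM in postnatal OPC 1 to 4, at 217, 217, 219 and 198 CPM in adult NSC 1 to 4, and at 148, 223, 246 and 189 CPM in postnatal NSC 1 to 4. All 4 postnatal OPC libraries were above all 8 neurosphere libraries, and the adult values lay inside the range of the postnatal NSC values. In postnatal OPC, Sox2 was 1.66-fold higher (log2 fold change 0.73 ± 0.16 SE, edgeR adjusted p = 0.00268) than in postnatal NSC and 1.57-fold higher (log2 fold change 0.65 ± 0.16 SE, edgeR adjusted p = 0.00445) than in adult NSC. All adjusted p values are from the quasi-likelihood test. Between adult and postnatal NSC the log2 difference was 0.078 ± 0.16 SE with a 95% interval of -0.26 to 0.42 and an edgeR adjusted p of 0.694. A change of either sign within that interval is therefore not excluded by these libraries.

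Sox1, whose product is restricted to neural tissue more closely than that of Sox2, had the reverse order (ENSMUSG00000096014.1, chr8:12395295-12400126, + strand, a single exon). Sox1 was at 29.3, 15.6, 21.3 and 19.5 CPM in postnatal OPC 1 to 4, at 39.8, 40.0, 42.8 and 39.5 CPM in adult NSC 1 to 4, and at 38.3, 37.9, 47.7 and 35.6 CPM in postnatal NSC 1 to 4. Every postnatal OPC library was below every neurosphere library, and the NSC groups overlapped. Sox1 was 1.86-fold lower (log2 fold change -0.90 ± 0.16 SE, edgeR adjusted p = 0.000856) in postnatal OPC than in postnatal NSC and 1.89-fold lower (log2 fold change -0.92 ± 0.16 SE, edgeR adjusted p = 0.000569) than in adult NSC. The 95% interval for adult over postnatal NSC was -0.32 to 0.37 around a log2 value of 0.024, with an edgeR adjusted p of 0.908. Its transcript was counted at the lowest level of the SOXB1 genes in all 3 groups, at 4.43 ± 1.20 CPM per kb of annotated exon in postnatal OPC, 8.39 ± 0.319 in adult NSC and 8.25 ± 1.10 in postnatal NSC (SD, n = 4 each).

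Sox3, the X-linked SOXB1 gene (ENSMUSG00000045179.9, chrX:60891366-60893430, - strand, a single exon), depended on a single OPC library. Sox3 was at 87.9, 189.7, 77.3 and 69.7 CPM in postnatal OPC 1 to 4, at 155, 133, 123 and 129 CPM in adult NSC 1 to 4, and at 147, 202, 155 and 184 CPM in postnatal NSC 1 to 4. Postnatal OPC 1, 3 and 4 were below all neurosphere libraries, whereas postnatal OPC 2 was above all adult NSC and inside the postnatal NSC range. Over all libraries Sox3 was 1.62-fold lower (log2 fold change -0.70 ± 0.26 SE, edgeR adjusted p = 0.0475) in postnatal OPC than in postnatal NSC. Without postnatal OPC 2 the log2 value was -1.16, adjusted p = 4.21e-05, and the call was lost when any 1 of postnatal OPC 1, 3 or 4, adult NSC 1 to 4, or postnatal NSC 2 or 4 was left out (edgeR adjusted p over all alternatives 2.5e-05 to 0.152). Adult over postnatal NSC was -0.35 ± 0.26 SE on the log2 scale (95% interval -0.92 to 0.22, edgeR adjusted p = 0.272), and without postnatal OPC 2 it was -0.39, adjusted p = 0.0125 (alternatives 0.0106 to 0.417). For postnatal OPC over adult NSC the log2 value was -0.34 ± 0.26 SE (95% interval -0.92 to 0.23, edgeR adjusted p = 0.298), against -0.78, adjusted p = 0.000420 without postnatal OPC 2 (alternatives 0.000228 to 0.577). Sex differed between the cultures, as judged by Xist and Ddx3y counts. Xist was high in 5 libraries, postnatal OPC 1, adult NSC 1 and postnatal NSC 2, 3 and 4, so sex was not balanced between the groups. Of these, postnatal OPC 1 and postnatal NSC 4 also had Ddx3y, at 19.6 and 16.1 CPM, as in cultures of both sexes. In adult NSC 1 and postnatal NSC 2 and 3, Ddx3y was at most 0.0702 CPM. With Y-linked expression as a covariate the postnatal OPC over postnatal NSC value of Sox3 was -0.62, adjusted p = 0.152.

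**Figure D2:**
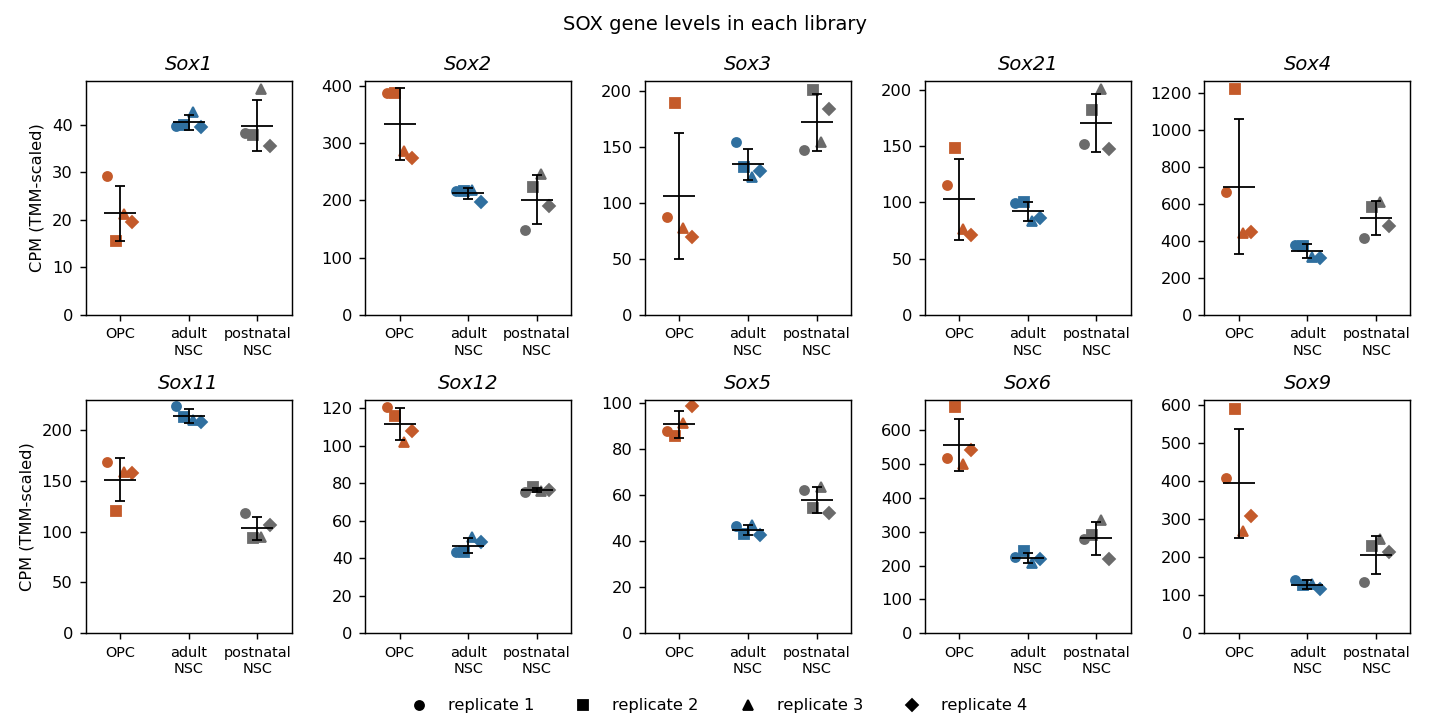
CPM of each SOX gene in each library (linear axes from 0), with postnatal OPC, adult NSC and postnatal NSC from left to right, symbols for the replicate number, and the mean ± SD as black bars. Sox2, Sox5, Sox6, Sox9 and Sox12 have all 4 OPC libraries above all neurosphere libraries, and Sox11 has all adult NSC above the other groups. Postnatal OPC 2 (squares) is far above the other OPC libraries for Sox3 and Sox4.

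Sox21, the SOXB2 gene, encodes a repressor that opposes the SOXB1 proteins (ENSMUSG00000061517.8, chr14:118233232-118237030, - strand, a single exon). Sox21 was at 115, 148, 76.1 and 70.5 CPM in postnatal OPC 1 to 4, at 99.0, 99.8, 83.4 and 85.9 CPM in adult NSC 1 to 4, and at 152, 182, 201 and 147 CPM in postnatal NSC 1 to 4. All adult NSC and 3 of the 4 postnatal OPC libraries were below all postnatal NSC libraries, and postnatal OPC 2 reached the lower end of the postnatal NSC range. Relative to postnatal NSC, Sox21 was 1.66-fold lower (log2 fold change -0.73 ± 0.21 SE, edgeR adjusted p = 0.0115) in postnatal OPC and 1.85-fold lower (log2 fold change -0.89 ± 0.21 SE, edgeR adjusted p = 0.00351) in adult NSC. The difference of postnatal OPC was -0.57, adjusted p = 0.0790 once Y-linked expression entered as a covariate (edgeR alternatives 0.000756 to 0.0790). Postnatal OPC over adult NSC was 0.16 ± 0.21 SE with a 95% interval of -0.29 to 0.60 and did not pass (edgeR adjusted p = 0.555). An antisense RNA, Gm4675, covers 18.8% of the exon bases of Sox21. Gm4675 had 1212 counts over all libraries. If strand was ignored in counting, reads over the shared bases may have been left out, which would lower the level of Sox21 given here.

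The balance of Sox2 to its relatives was compared per length within each library. The ratio of Sox2 to Sox21 was 4.84 to 7.17 in postnatal OPC and 4.01 to 4.85 in adult NSC, with 1.80 to 2.38 in postnatal NSC. Postnatal NSC had the lowest ratios and did not overlap either other group. The ratio of Sox2 to Sox3 was 2.05 to 4.44 in postnatal OPC and 1.41 to 1.79 in adult NSC, with 1.01 to 1.59 in postnatal NSC. Here postnatal OPC were above both NSC groups, which overlapped each other. The ratio of Sox2 to Sox1 was 31.1 to 58.4 in postnatal OPC and 11.7 to 12.8 in adult NSC, with 9.06 to 13.8 in postnatal NSC. The SOXB1 transcripts of postnatal OPC were thus more dominated by Sox2 than those of either NSC group, with no overlap between libraries for either ratio.

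**Figure D3:**
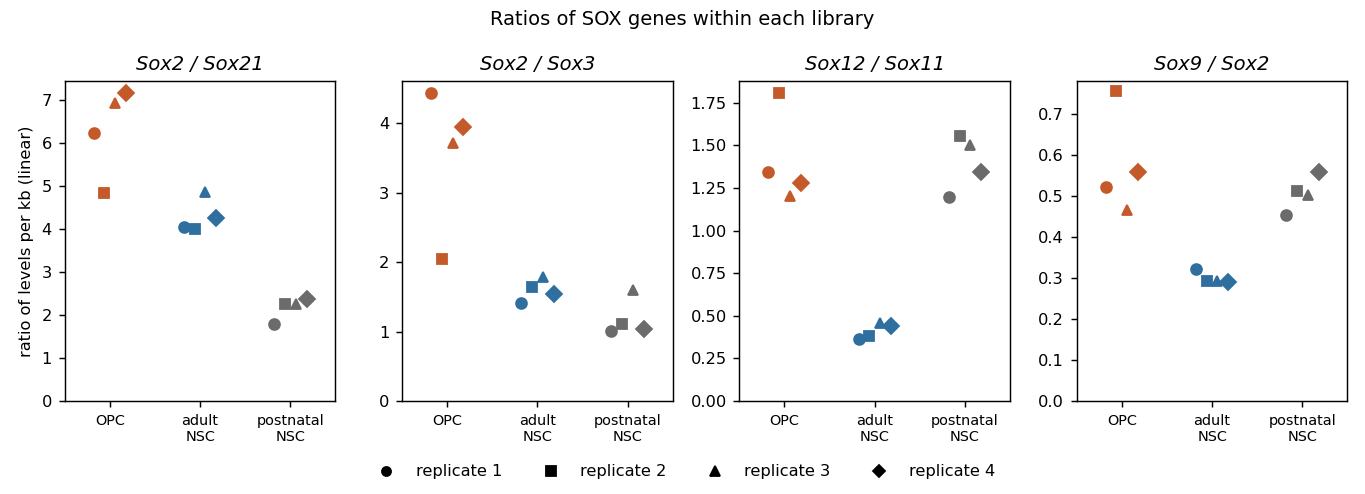
Ratios of the levels per kb of 2 SOX genes within a library (linear axes from 0), for postnatal OPC, adult NSC and postnatal NSC from left to right, with a symbol per replicate number. The Sox2 to Sox21 ratio is lowest in postnatal NSC (1.80 to 2.38), and the Sox12 to Sox11 ratio is lowest in adult NSC (0.365 to 0.459).

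The promoter sequences of Sox2, Sox11 and Sox12 are shown for their results in adult over postnatal NSC. Sox11 and Sox12, of the same subgroup, had opposite directions there, while Sox2 did not pass that test. The sequences are the RefSeq sequences upstream of the annotated start on GRCm38.p6, 5′ to 3′ on the strand of the gene, from chr3:34649745-34649994 (Sox2, + strand), chr12:27342719-27342968 (Sox11, - strand) and chr2:152398064-152398296 (Sox12, - strand). Capitals mark the SOX core ACAAAG or ACAATG, the CCAAT box (here as its reverse complement ATTGG) and the POU octamer ATGCAAAT, searched on both strands together with TATAAA, and no motif contains another. The RefSeq starts of Sox2 and Sox11 lie upstream of the GENCODE M21 gene spans given here.
Sox2: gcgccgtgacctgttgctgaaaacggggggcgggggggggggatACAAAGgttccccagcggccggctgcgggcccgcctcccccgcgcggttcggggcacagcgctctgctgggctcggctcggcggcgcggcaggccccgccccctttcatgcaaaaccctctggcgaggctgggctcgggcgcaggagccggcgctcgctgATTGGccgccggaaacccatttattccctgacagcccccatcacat
Sox11: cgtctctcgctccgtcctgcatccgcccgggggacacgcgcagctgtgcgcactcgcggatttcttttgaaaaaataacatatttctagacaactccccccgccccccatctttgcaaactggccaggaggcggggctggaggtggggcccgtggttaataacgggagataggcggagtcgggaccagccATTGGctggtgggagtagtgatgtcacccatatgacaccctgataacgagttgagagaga
Sox12: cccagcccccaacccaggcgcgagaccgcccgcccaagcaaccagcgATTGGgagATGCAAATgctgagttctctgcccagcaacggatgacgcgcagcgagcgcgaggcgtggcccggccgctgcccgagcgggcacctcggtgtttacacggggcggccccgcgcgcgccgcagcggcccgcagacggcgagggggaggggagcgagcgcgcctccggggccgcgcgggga
The Sox2 window has ACAAAG starting 206 bases before the start and the CCAAT box at 46 bases, the Sox11 window has the CCAAT box at 60 bases, and the Sox12 window has the CCAAT box at 203 bases followed by the POU octamer at 195 bases. Sox2 is known to bind DNA beside POU factors, but a match of letters is a description and not a site. In 250-base windows of 32851 RefSeq promoters, 25.2% held ACAAAG or ACAATG, 33.8% CCAAT, 12.4% TATAAA and 1.6% the octamer. Of the 8 members matched in the promoter table, with 13 windows in all, Sox2, Sox5 and Sox6 had an ACAAAG or ACAATG in at least 1 window. Counts of motifs and of the CG dinucleotide are over whole 250-base windows, also where these reach into an annotated exon, as most of the Sox1 window does. CG occurred 35 times in the window of Sox12, 29 times in that of Sox1, 27 times in that of Sox2, 17 times each in those of Sox11 and Sox21, 11 times in that of Sox4, 3 times in that of Sox5 and 1 to 10 times in the windows of Sox6. The median of all promoters was 6.

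The SOXC genes differed from each other in direction. Sox12, the SOXC gene with the weakest activation of transcription (ENSMUSG00000051817.8, chr2:152393611-152398063, - strand), was at 121, 116, 102 and 108 CPM in postnatal OPC 1 to 4, at 43.6, 43.2, 51.5 and 48.8 CPM in adult NSC 1 to 4, and at 75.6, 78.0, 75.9 and 76.6 CPM in postnatal NSC 1 to 4. The 3 groups did not overlap at all, with postnatal OPC highest and adult NSC lowest. In postnatal OPC it was 1.46-fold higher (log2 fold change 0.55 ± 0.078 SE, edgeR adjusted p = 0.000179) than in postnatal NSC and 2.39-fold higher (log2 fold change 1.26 ± 0.080 SE, edgeR adjusted p = 2.36e-07) than in adult NSC. In adult NSC it was 1.64-fold lower (log2 fold change -0.71 ± 0.079 SE, edgeR adjusted p = 3.67e-05) than in postnatal NSC. The 4 postnatal NSC libraries differed by an SD of 0.021 on the log2 scale, which was smaller than for all but 0.124% of the genes tested, whose median SD was 0.283.

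Sox11, which drives neuronal genes in newly formed neurons (ENSMUSG00000063632.6, chr12:27334264-27342574, - strand, a single exon), was at 168, 119.9, 159 and 158 CPM in postnatal OPC 1 to 4, at 223, 213, 209 and 208 CPM in adult NSC 1 to 4, and at 118, 93.5, 94.3 and 106 CPM in postnatal NSC 1 to 4. All adult NSC were above all other libraries, and all postnatal OPC were above all postnatal NSC. Sox11 was 2.07-fold higher (log2 fold change 1.05 ± 0.11 SE, edgeR adjusted p = 2.39e-05) in adult than in postnatal NSC. In postnatal OPC it was 1.47-fold higher (log2 fold change 0.55 ± 0.11 SE, edgeR adjusted p = 0.00145) than in postnatal NSC and 1.41-fold lower (log2 fold change -0.50 ± 0.11 SE, edgeR adjusted p = 0.00229) than in adult NSC. The ratio of Sox12 to Sox11 per length was 1.20 to 1.80 in postnatal OPC and 0.365 to 0.459 in adult NSC, with 1.19 to 1.56 in postnatal NSC. Sox12 thus exceeded Sox11 in every postnatal library and was below it in every adult one.

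Sox4 shares neuronal targets with Sox11 and is also present in early oligodendrocyte precursors (ENSMUSG00000076431.4, chr13:28948919-28953713, - strand, a single exon). Sox4 was at 665, 1220.1, 444 and 449 CPM in postnatal OPC 1 to 4, at 380.2, 375, 316 and 305 CPM in adult NSC 1 to 4, and at 417, 584, 614 and 483 CPM in postnatal NSC 1 to 4. Postnatal OPC 2 was far above every other library, and all adult NSC were below all postnatal libraries of both kinds. Sox4 was 2.02-fold higher (log2 fold change 1.01 ± 0.28 SE, edgeR adjusted p = 0.00913) in postnatal OPC than in adult NSC, and without postnatal OPC 2 the log2 value was 0.60, adjusted p = 0.0120 (edgeR alternatives 0.00408 to 0.0295). Postnatal OPC over postnatal NSC was 0.41 ± 0.28 SE (95% interval -0.19 to 1.01, edgeR adjusted p = 0.249) and had the opposite sign without postnatal OPC 2, at -0.040, adjusted p = 0.863 (alternatives 0.110 to 0.863). Adult over postnatal NSC was -0.61 ± 0.28 SE and did not pass (edgeR adjusted p = 0.0815), though the groups did not overlap, and it was -0.64, adjusted p = 0.00473 without postnatal OPC 2 (alternatives 0.00473 to 0.177). An antisense RNA, Gm26735, covers 54.6% of the exon bases of Sox4 and had 0 counts. If strand was ignored in counting, reads over the shared bases may have been left out, which would lower the level and rank of Sox4 given here.

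The SOXD genes had the same directions as each other in all 3 comparisons. Sox5 (ENSMUSG00000041540.16, chr6:143828425-144781977, - strand) and Sox6 (ENSMUSG00000051910.13, chr7:115470872-116038796, - strand) span long loci with many isoforms, which a count per gene cannot separate. The antisense RNA Sox5os1 covers 9.25% of the exon bases of Sox5 and had 0 counts, with the same uncertainty as at Sox4. In the mouse spinal cord the products of both genes hold oligodendrocyte precursors back from maturing. Sox5 was at 87.8, 85.6, 91.4 and 98.8 CPM in postnatal OPC 1 to 4, at 46.5, 43.4, 47.1 and 42.9 CPM in adult NSC 1 to 4, and at 62.1, 54.4, 63.5 and 52.1 CPM in postnatal NSC 1 to 4. Sox6 was at 516, 668, 499 and 543 CPM in postnatal OPC 1 to 4, at 226, 242, 208 and 218 CPM in adult NSC 1 to 4, and at 278, 289.7, 335 and 219 CPM in postnatal NSC 1 to 4. For both genes all postnatal OPC were above all neurosphere libraries, and for Sox5 all adult NSC were also below all postnatal NSC. In postnatal OPC, Sox5 was 1.57-fold higher (log2 fold change 0.65 ± 0.084 SE, edgeR adjusted p = 9.07e-05) than in postnatal NSC and 2.02-fold higher (log2 fold change 1.02 ± 0.085 SE, edgeR adjusted p = 1.74e-06) than in adult NSC. Sox6 was 1.99-fold higher (log2 fold change 0.99 ± 0.13 SE, edgeR adjusted p = 9.36e-05) in postnatal OPC than in postnatal NSC and 2.49-fold higher (log2 fold change 1.32 ± 0.13 SE, edgeR adjusted p = 6.81e-06) than in adult NSC. In adult NSC, Sox5 was 1.29-fold lower (log2 fold change -0.37 ± 0.084 SE, edgeR adjusted p = 0.00324) than in postnatal NSC. For Sox6, 2 of 4 adult NSC libraries were below all postnatal NSC and the gene was 1.25-fold lower (log2 fold change -0.33 ± 0.13 SE, edgeR adjusted p = 0.0474) in adult than in postnatal NSC. That Sox6 call was lost when any 1 of postnatal OPC 3 or 4, adult NSC 1 to 4 or postnatal NSC 1, 2 or 3 was left out, with an adjusted p of 0.0529 to 0.130, and once Y-linked expression entered as a covariate (-0.28, adjusted p = 0.118, edgeR alternatives 0.00449 to 0.130).

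Sox9, the SOXE gene that promotes gliogenesis and is kept by astrocytes and neural stem cells (ENSMUSG00000000567.5, chr11:112782224-112787760, + strand, 3 exons), had the largest fold difference of the 10 genes between postnatal OPC and adult NSC. Sox9 was at 409, 590.2, 268 and 308 CPM in postnatal OPC 1 to 4, at 141, 127, 129 and 115 CPM in adult NSC 1 to 4, and at 135, 229.6, 249 and 213 CPM in postnatal NSC 1 to 4. All postnatal OPC were above all neurosphere libraries, with postnatal OPC 2 highest, and 3 of 4 adult NSC were below all postnatal NSC. In postnatal OPC it was 3.07-fold higher (log2 fold change 1.62 ± 0.24 SE, edgeR adjusted p = 0.000148) than in adult NSC and 1.91-fold higher (log2 fold change 0.93 ± 0.23 SE, edgeR adjusted p = 0.00652) than in postnatal NSC. Without postnatal OPC 2 the log2 value was 1.36, adjusted p = 0.000144 against adult NSC (edgeR alternatives 1.72e-05 to 0.000920) and 0.64, adjusted p = 0.0156 against postnatal NSC (alternatives 0.00307 to 0.0245). In adult NSC, Sox9 was 1.61-fold lower (log2 fold change -0.69 ± 0.23 SE, edgeR adjusted p = 0.0263) than in postnatal NSC. That call was lost when any 1 of adult NSC 2, 3 or 4 or postnatal NSC 2 or 3 was left out, with an edgeR adjusted p of 0.0524 to 0.0686, and once Y-linked expression entered as a covariate (-0.56, adjusted p = 0.0786, alternatives 0.00478 to 0.0786). Sox9 per length relative to Sox2 was 0.466 to 0.758 in postnatal OPC and 0.290 to 0.324 in adult NSC, with 0.454 to 0.559 in postnatal NSC. Adult NSC had the lowest ratios, and the postnatal groups overlapped.

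Postnatal OPC 2 differed from the other OPC libraries unevenly across the members. Relative to the mean of the other 3 OPC libraries it had 2.42 times the CPM of Sox3, 2.35 times that of Sox4, 1.80 times that of Sox9 and 1.69 times that of Sox21. For Sox12 and Sox5 the ratio was 1.05 and 0.923, and for Sox11 and Sox1 it was 0.742 and 0.666. Postnatal OPC 2 was the highest OPC library for 5 members and the lowest for 3, while over all genes tested it was highest for 38.2% and lowest for 36.7%. Postnatal NSC 3, the other library low in G1/S genes, ranged only between 0.871 (Sox3) and 1.32 (Sox2) times the mean of the other postnatal NSC, and was highest for 7 members where it was highest for 35.5% of all genes. The part of the G1/S difference in these values was not tested.

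**Figure D4:**
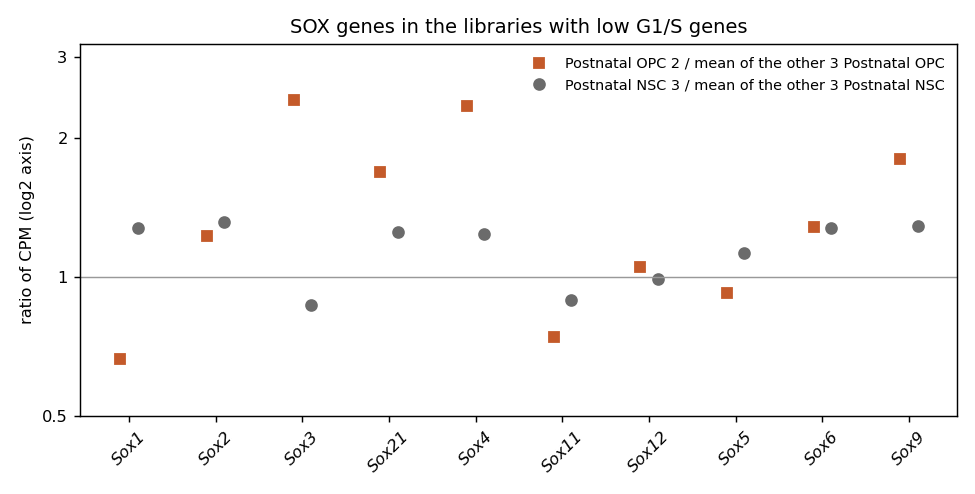
CPM of each SOX gene in postnatal OPC 2 and in postnatal NSC 3, each divided by the mean of the other 3 libraries of its group (log2 axis, line at 1). The values of postnatal OPC 2 run between 0.666 for Sox1 and 2.42 for Sox3, and those of postnatal NSC 3 between 0.871 and 1.32.

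Levels were ordered between genes as CPM per kb of annotated exon. For Sox5 and Sox6 the exons of all isoforms together exceed any single transcript, so this scale understates both. In postnatal OPC the highest genes were Sox2 (162 ± 30.4), Sox4 (145 ± 76.2) and Sox9 (95.2 ± 34.8 CPM per kb, SD, n = 4), whose ranges over the libraries overlapped, although Sox9 was below Sox2 and below Sox4 within each library. In adult NSC, Sox2 (103 ± 4.84) was above all others in every library, followed by Sox4 (71.8 ± 8.14) and Sox3 (65.2 ± 6.73), which overlapped each other and were above Sox9 (31.0 ± 2.55 CPM per kb). In postnatal NSC, Sox4 (109 ± 19.0), Sox2 (97.9 ± 20.7) and Sox3 (83.3 ± 12.3) formed the top and overlapped as neighbours, and every library had them above Sox9 (49.96 ± 12.1) and Sox21 (44.8 ± 6.75 CPM per kb). Sox9 was below Sox3 in every library of both neurosphere groups. Sox5 and Sox1 were the lowest pair in every group by mean.

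As a share of the summed level per kb of the 10 genes, the SOXB1 genes made up 38.6% ± 2.67 in postnatal OPC, 49.4% ± 0.83 in adult NSC and 42.5% ± 1.60 in postnatal NSC (SD, n = 4 each). Sox21 made up 4.66% ± 0.394 in postnatal OPC, 6.75% ± 0.342 in adult NSC and 10.1% ± 0.851 in postnatal NSC. The share of Sox9 was 16.4% ± 1.23 in postnatal OPC, 8.65% ± 0.337 in adult NSC and 11.1% ± 1.47 in postnatal NSC, and that of Sox5 and Sox6 together was 8.01% ± 1.69 in postnatal OPC, 5.08% ± 0.231 in adult NSC and 5.19% ± 0.876 in postnatal NSC. The SOXC share lay at 32.3% ± 2.75 in postnatal OPC, 30.1% ± 0.603 in adult NSC and 31.2% ± 0.848 in postnatal NSC, closer together than any other subgroup relative to its size. The 10 genes held 0.204% to 0.367% of all counts in postnatal OPC and 0.135% to 0.149% in adult NSC, with 0.160% to 0.213% in postnatal NSC. Every adult library was below every postnatal library.

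The members' profiles over the 12 libraries were compared by the root mean square difference of log2 CPM after centring each gene on its own mean, where 0 is an identical profile. The closest members were Sox5 and Sox12 (0.198), Sox5 and Sox6 (0.224) and Sox6 and Sox12 (0.277), and the farthest were Sox1 and Sox9 (1.14). Among 12694 other protein-coding genes compared, the most alike to Sox2 were Parp11 (0.0896) and Zfp606 (0.129), and to Sox1 Pard3b (0.0984), a polarity gene, and Rdm1 (0.144). Sox5 was closest to Spire1 (0.0868), an actin nucleator, and to Zcchc24 (0.106), Sox6 to Pcdh9 (0.100), a protocadherin, and Kif13a (0.109), and Sox12 to H2afy2 (0.109) and Bex3 (0.114). Sox11 was closest to Pkn2 (0.105) and Sacm1l (0.107), Sox21 to Atg2a (0.125) and Bcl9l (0.130), and Sox4 to Zfp30 (0.129) and Tcp11l1 (0.167). The nearest to Sox9 were Zfp949 (0.0785) and Drp2 (0.190), and Sox3 had the most distant neighbours, Apba3 (0.186) and Rabac1 (0.197). These values describe the 12 libraries, which include the same group differences for every gene.

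Of 10 other SOX genes, 4 were tested. Sox10, the SOXE gene that drives oligodendrocyte differentiation, was at 191 ± 130.1 CPM in postnatal OPC, 12.4 ± 1.48 CPM in adult NSC and 136 ± 70.3 CPM in postnatal NSC (SD, n = 4 each). Sox8, a SOXE gene of the same lineage, was at 416 ± 198 CPM in postnatal OPC, 156 ± 3.91 CPM in adult NSC and 283 ± 92.3 CPM in postnatal NSC. Both were lower in adult NSC than in postnatal NSC (log2 fold change -3.46 ± 0.49 SE for Sox10 and -0.86 ± 0.29 SE for Sox8) and higher in postnatal OPC than in adult NSC (3.94 ± 0.50 SE for Sox10 and 1.42 ± 0.30 SE for Sox8), while postnatal OPC over postnatal NSC did not pass for either. Both were also highest among OPC in postnatal OPC 2, at 382 CPM for Sox10 and 708 CPM for Sox8. Their directions against adult NSC were those of Sox9. Sox13, the third SOXD gene, was at 14.9 ± 3.45 CPM in postnatal OPC, 28.4 ± 2.38 CPM in adult NSC and 43.8 ± 8.37 CPM in postnatal NSC, the reverse of Sox5 and Sox6 in postnatal OPC over postnatal NSC (-1.55 ± 0.18 SE). Sox7, an endothelial SOXF gene, was at 0.147 ± 0.173 CPM in postnatal OPC, 4.45 ± 1.53 CPM in adult NSC and 0.401 ± 0.238 CPM in postnatal NSC. Of 6 endothelial markers, Flt1 was at 0 to 0.461 CPM in postnatal OPC, 11.7 to 12.7 CPM in adult NSC and 0.501 to 11.3 CPM in postnatal NSC, and Kdr was at 1.56 to 3.34 CPM in postnatal OPC, 2.28 to 2.65 CPM in adult NSC and 2.39 to 4.06 CPM in postnatal NSC. The other 4 (Pecam1, Cldn5, Tek and Cdh5) were each below 1 CPM in every library, and their part in the Sox7 values was not tested. Sox14, Sox17 and Sry had no counts, and Sox15, Sox18 and Sox30 had 16, 20 and 79 counts over all libraries.

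The long RNA Sox2ot, whose span on the same strand contains Sox2 without sharing exon bases, was at 71.1 ± 16.3 CPM in postnatal OPC, 85.2 ± 7.83 CPM in adult NSC and 48.1 ± 4.85 CPM in postnatal NSC. It was higher in both postnatal OPC (log2 fold change 0.57 ± 0.15 SE, adjusted p = 0.00930) and adult NSC (log2 fold change 0.83 ± 0.15 SE, adjusted p = 0.000896) than in postnatal NSC by edgeR, whereas Sox2 itself was higher in postnatal OPC and did not pass in adult NSC. Sox1ot was at 3.51 ± 1.53 CPM in postnatal OPC, 2.74 ± 0.448 CPM in adult NSC and 6.04 ± 3.59 CPM in postnatal NSC and was lower in adult than in postnatal NSC (log2 fold change -1.14 ± 0.41 SE, adjusted p = 0.0332, edgeR).

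Partner factors of SOX proteins were called at about the share of all genes. Of 9 tested, 2 were higher and 2 lower in postnatal OPC than in postnatal NSC, 2 were higher and 2 lower in adult NSC than in postnatal NSC, and 3 were higher and 2 lower in postnatal OPC than in adult NSC. Over all genes tested, 45.1%, 53.1% and 51% were called in these comparisons. The median log2 fold change of the partners was 0.033 in postnatal OPC over postnatal NSC, -0.0071 in adult over postnatal NSC and -0.048 in postnatal OPC over adult NSC, beside -0.0083, -0.025 and 0.0065 over all genes. Pou3f2 (Brn2), the POU factor that pairs with Sox2 in neural progenitors, was at 69.3 ± 11.5 CPM in postnatal OPC, 40.9 ± 2.5 CPM in adult NSC and 22.7 ± 5.39 CPM in postnatal NSC. It was higher in postnatal OPC than in postnatal NSC (log2 fold change 1.61 ± 0.17 SE) and than in adult NSC (0.76 ± 0.17 SE), and higher in adult than in postnatal NSC (0.85 ± 0.17 SE). Pax6, a partner of Sox2 in the lens and brain, was lower than in postnatal NSC in both postnatal OPC and adult NSC, with log2 fold changes of -0.68 ± 0.17 SE in postnatal OPC and -0.68 ± 0.17 SE in adult NSC. Nfix was likewise lower in both (-1.18 ± 0.14 SE in postnatal OPC and -0.74 ± 0.14 SE in adult NSC), and Nfib was higher in adult NSC than in postnatal NSC (0.64 ± 0.13 SE).

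Of 6 genes tested that are reported as SOXB1 targets, 5 were lower and none higher in postnatal OPC than in postnatal NSC, where 22.7% of all genes were lower and 22.4% higher. Their median log2 fold change was -0.98, beside -0.0083 over all genes, with Vim at -1.71 ± 0.24 SE and Nes, the intermediate filament gene with a SOX-bound enhancer, at -1.04 ± 0.17 SE on the log2 scale. Against adult NSC, 4 were lower (Vim, Nes, Egfr and Notch1) and 1, Hes5, was higher (2.67 ± 0.90 SE), where 24.7% of all genes were lower and 26.3% higher. In adult against postnatal NSC, 2 were higher (Nes 0.43 ± 0.17 and Egfr 0.59 ± 0.22 SE) and 1, Hes5, was lower (-4.65 ± 0.97 SE), where 25.2% of all genes were higher and 27.9% lower. Hes5, a Notch effector, was at 9.68 to 12.2 CPM in adult NSC and at 18.8, 74.3, 873 and 123 CPM in postnatal NSC 1 to 4. Postnatal NSC 3 carried most of its postnatal level. Sox2 was higher in postnatal OPC, where Nes and Vim were lower, and Sox1 and Sox3 were lower there. Nes, Vim, Nr2e1 and Hes5 also belong to the neural stem and radial glia markers. Of those 11 markers, 8 were lower and 1 higher in postnatal OPC than in postnatal NSC. Their part in the values of the SOXB1 targets was not tested.

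Of 4 genes reported as SOXC targets, Dcx (log2 fold change 2.71 ± 0.52 SE) and Map2 (0.98 ± 0.14 SE) were higher and Tead2 lower (-2.09 ± 0.16 SE) in postnatal OPC than in postnatal NSC, where 45.1% of all genes were called. Dcx (-3.59 ± 0.63 SE) and Tubb3 (-2.03 ± 0.37 SE) were lower in adult than in postnatal NSC. Of the SOXC genes in that comparison, Sox11 was higher, Sox12 was lower (-0.71 ± 0.079 SE) and Sox4 did not pass (-0.61 ± 0.28 SE). In postnatal OPC against adult NSC, 3 of the 4 were higher, and Tead2 was lower. Dcx, Map2 and Tubb3 belong to the neuroblast markers, whose summed level was 1338 to 2062 CPM in postnatal OPC, 683 to 770 CPM in adult NSC and 730 to 1118 CPM in postnatal NSC. Most of this sum was Map2, with means of 1416 CPM in postnatal OPC, 692 in adult NSC and 717 in postnatal NSC. The part of the neuroblast markers in the SOXC values was not tested.

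Of 9 genes reported as SOXD or SOXE targets, 3 were higher and 4 lower in postnatal OPC than in postnatal NSC, none was higher and 8 were lower in adult NSC than in postnatal NSC, and 7 were higher and 1 lower in postnatal OPC than in adult NSC. The shares over all genes were 22.4% higher and 22.7% lower, 25.2% higher and 27.9% lower, and 26.3% higher and 24.7% lower in these comparisons. The median log2 fold change of the 9 genes was -0.83 in postnatal OPC over postnatal NSC, -2.45 in adult over postnatal NSC and 1.95 in postnatal OPC over adult NSC. Pdgfra, the PDGF receptor gene of OPC, was at 1433 ± 710.2 CPM in postnatal OPC, 12.2 ± 2.98 CPM in adult NSC and 230.0 ± 59.6 CPM in postnatal NSC, and its log2 fold change was 6.87 ± 0.39 SE in postnatal OPC over adult NSC. Zcchc24 had the directions of Sox5 in all 3 comparisons (0.68 ± 0.078 SE in postnatal OPC over postnatal NSC, -0.28 ± 0.078 SE in adult over postnatal NSC and 0.95 ± 0.079 SE in postnatal OPC over adult NSC). Apcdd1 was the exception, lower in postnatal OPC than in either NSC group (-2.20 ± 0.25 SE against postnatal and -0.65 ± 0.24 SE against adult NSC). Several of these targets are also markers of the oligodendrocyte lineage.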

How the data were processed

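Stranded poly(A) libraries from 12 cultures were sequenced, per the labels. The values are whole read counts per gene as deposited, without normalization; FastQC, STAR, featureCounts 1.22.2 and GRCm38 are named in the submitters' processing notes, and settings, annotation release and strand handling are not given in the sources used here. Of 55401 identifiers, 55141 matched GENCODE M21, which gave symbols, coordinates and exon lengths. Samples were grouped by their titles. One edgeR 4.0.16 quasi-likelihood fit (R 4.3.3, limma 3.58.1, TMM, filterByExpr with minimum count 10 and total 15, a term per group) covered 16135 genes in 12 libraries. Its 3 two-sided contrasts were adjusted by Benjamini-Hochberg over all genes tested and called under 0.05. The SE is the log2 fold change divided by the root of the F value. The members, the lists of other SOX genes, partners, reported targets and cell type markers, and the tests were chosen with earlier results of these data known. All members are described in every library; from a list, up to 4 called genes per direction and those that go against it; and, for each member, the 2 protein-coding genes with the most similar profile. Alternatives were other scaling, filters, DESeq2 1.42.0, fewer libraries, thinning to 16756231 counts, a replicate term and a Y-linked covariate. The fit was tested on simulated data. Tables were made with Python 3.11.15. Counts of any pair of replicates had a chi-square of 3.98 or more for each degree of freedom, so no pair was counted as 1 library. Promoters are from RefSeq on GRCm38.p6. Printed sequences end where an annotated exon begins, while motifs and CG were counted in whole windows.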

Additional observations from a re-analysis of the deposited data

Results flagged for a closer look

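Of 30 groups of 4 libraries examined, 1 for each gene and group, 2 had a library far from the others by Dixon's criterion, and chance alone marks about 1 group in 20. Sox1 in adult NSC 3 was at 42.8 CPM, where the other adult NSC libraries had 39.5 to 40.0 CPM. Sox2 in adult NSC 4 was at 197.8 CPM, where the others had 216.8 to 219.0 CPM. Both gaps are small in absolute terms, since the adult NSC libraries were close to each other for both genes.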

How the results depend on the processing

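Over 21 alternatives, 582 of 630 values of the 30 SOX fold changes kept their direction and side of the threshold, 29 lost the call, 8 gained it and 11 changed sign, none of them a called value. The counts of higher members, 6 in postnatal OPC against postnatal NSC, 1 in adult against postnatal NSC and 6 in postnatal OPC against adult NSC, were the same in every alternative. The number of lower members in postnatal OPC against postnatal NSC was 1 with Y-linked expression as a covariate and 2 to 3 without 1 library. In adult against postnatal NSC it was 3 with that covariate and 3 to 7 without 1 library. The cause was not tested. Sign changes were Sox1 in adult over postnatal NSC, at -0.0055 with no filter, -0.0013 with at least 1 CPM in 4 libraries and -0.069 to 0.12 without 1 library. Sox2 in the same comparison was at -0.077 to 0.19, Sox4 in postnatal OPC over postnatal NSC at -0.040 to 0.57 and Sox21 in postnatal OPC over adult NSC at -0.068 to 0.30 without 1 library, with Sox21 at -0.070 without postnatal OPC 2 and postnatal NSC 3 together. The same numbers did not consistently pair libraries across groups, with correlations of deviations of -0.363 to 0.325 between same-numbered libraries. The closest adult NSC library had the same number for postnatal OPC 1, 2 and 3 (0.110, 0.0822 and 0.0651) but not for postnatal OPC 4. The closest postnatal NSC library had the same number only for postnatal OPC 4 (0.325), and for no adult NSC library. The replicate block moved only the call of Sox6 in adult over postnatal NSC (-0.32, edgeR adjusted p = 0.0565, alternatives 0.00449 to 0.130) and left 4 lower members there. Depth limits Sox1 most, with as few as 369 counts in a library.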

Other observations

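Calls of other markers of the cultures are listed beside the shares over all genes tested. These shares were 45.1% in postnatal OPC over postnatal NSC, 53.1% in adult over postnatal NSC and 51% in postnatal OPC over adult NSC. Of 11 neural stem and radial glia markers, 1 was higher (Fabp7) and 8 lower in postnatal OPC than in postnatal NSC, 1 was higher (Nes) and 5 lower in adult than in postnatal NSC, and 3 were higher (Hes5, Prom1 and Fabp7) and 2 lower (Vim and Nes) in postnatal OPC than in adult NSC. Of 6 mature oligodendrocyte markers tested, none was higher and 3 were lower in postnatal OPC than in postnatal NSC, and 1 was higher and 5 lower in adult than in postnatal NSC. Their summed level was 263 to 557 CPM in postnatal OPC, 147 to 187 CPM in adult NSC and 336 to 1014 CPM in postnatal NSC. Of 6 astrocyte markers tested, 1 was higher and 2 lower in postnatal OPC than in postnatal NSC, and none was higher and 3 lower in adult than in postnatal NSC. Of 8 neuroblast markers tested, 5 were higher and 2 (Dlx1 and Dlx2) lower in postnatal OPC than in postnatal NSC, and 1 was higher (Rbfox3) and 4 lower in adult than in postnatal NSC. In postnatal OPC against adult NSC, 3 mature oligodendrocyte markers were higher and 1 lower, 4 astrocyte markers were higher and 2 lower, and 5 neuroblast markers were higher and none lower. The part of these cell types in the SOX values was not tested.

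Markers of other cell types were as follows. Microglial markers summed to at most 2.02 CPM in any library, and Cx3cr1 had no counts. Erythroid markers were at 0 in every postnatal OPC library and at most 0.199 CPM in the other libraries. Pericyte and fibroblast markers summed to 0.817 to 9.34 CPM in postnatal OPC, 4.17 to 7.03 CPM in adult NSC and 9.42 to 15.7 CPM in postnatal NSC. Ependymal markers summed to 9.38 to 16.9 CPM in postnatal OPC, 19.8 to 21.5 CPM in adult NSC and 38.7 to 50.8 CPM in postnatal NSC, most of it Foxj1, and choroid plexus markers to 3.57 to 6.73 CPM in postnatal OPC, 1.45 to 3.55 CPM in adult NSC and 6.63 to 11.7 CPM in postnatal NSC.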
